A study of Homo sapiens with 12 samples.

Results

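The proteasome subunit and assembly genes were examined in U937 cells, a human monocyte-like cell line, shortly after delivery of PML-RARA. The members were taken from probe sets with exactly 1 gene symbol, where that symbol started with PSM, a letter from A to G and a digit. PSMB8 and PSMB9 were left out by this rule. Of 19775 genes on the arrays, 48 symbols met it. Of these, 40 are proteasome genes: 7 of class A, 8 of class B, 5 of class C, 12 of class D, 3 of class E, 1 of class F and 4 of class G. The other 8 symbols (PSMA3-AS1, PSMB8-AS1, PSMC3IP, PSMD14-DT, PSMD6-AS2, PSMD7-DT, PSME3IP1 and PSMG3-AS1) are antisense, divergent or interacting-protein genes and were kept apart. The filter on low values passed 39 of the 40, all except PSMA8, and 6 of the other 8. PSMA6 and PSME2 were met only by probe sets with several symbols, and PSMC5, PSMD7 and PSMD13 were not analysed here.

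Plasmids were delivered by electroporation: pEGFP (GFP only), pEGFP-PRWT (wild-type PML-RARA) or pEGFP-PR2VR. The series title speaks of a protease-resistant PML-RARA, and PR2VR was taken to be that form, although the plasmid field of its samples also calls the cDNA wild type. All cells were the same line, were electroporated, were sorted for GFP and so expressed GFP, and were harvested at 6 h or 9 h. There were 12 arrays in 6 groups of 2, numbered 1 and 2 within each group. The 3 arrays that share an hour and a number are called a set. The titles count hours after transfection for GFP and after infection for the fusions. Nothing in the labels says that the numbered samples were separate cultures, so the spread behind each p-value is that between these arrays and may be technical.

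The proteasome is the chamber in which most ubiquitin-tagged proteins of the cell are cut up. Its core is a barrel of alpha-subunit rings (class A), which form the gates, around beta-subunit rings (class B), some of whose members hold the cutting sites. A cap of ATPases (class C) and non-ATPase subunits (class D) binds the tagged protein, removes the ubiquitin, unfolds the chain and feeds it in. Class E genes code for activators that open the gate without ubiquitin, class F for an inhibitor, and class G for chaperones that build the core. The transcription factor NFE2L1 is known to raise many of these genes together when the proteasome is blocked, through antioxidant response elements in their promoters. PML-RARA, the fusion oncoprotein of acute promyelocytic leukaemia, is itself degraded by the proteasome during arsenic or retinoic acid treatment.

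To show the kind of promoter sequence on which NFE2L1 is known to act, windows around TGACNNNGC are printed for 5 genes that carry results below. The sequences are RefSeq's, build GRCh38.p14, 5′ to 3′ on the gene's own strand, from 250 bases before to 50 bases after the gene's start, and the capitals mark the 9 matched letters.
PSMB3, chr17:38752627-38752655, plus strand: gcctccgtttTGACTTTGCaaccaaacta
PSMC4, chr19:39971182-39971210, plus strand: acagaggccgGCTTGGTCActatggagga
PSMD1, chr2:231056896-231056916, plus strand: aggaggcgacTGACTGAGCag
PSMD3, chr17:39980760-39980788, plus strand: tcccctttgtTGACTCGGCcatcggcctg
PSMD3, chr17:39980830-39980856, plus strand: gtttgcagctGCTCCGTCAtcgtgcgg
PSME1, chr14:24136098-24136126, plus strand: atggcagggcTGACCCCGCctcctccatc
The PSMC4 window and the second PSMD3 window hold the match on the opposite strand. The PSMC4 and PSMD1 matches and the second PSMD3 match lie just after the gene's start. Both strands were searched, and no motif searched lies within another. Promoters of 34 of the 40 members were in the table, and 11 of them (32.4%) held TGACNNNGC, against 13.6% of 27305 promoters. CCGGAAG, the core bound by ETS factors, was in 11 of 34 (32.4%) against 10.7%. CCAAT was in 15 of 34 (44.1%) against 35.7%. A match describes letters only, not binding. The 40 genes lie on 17 chromosomes.

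The labels were checked by RARA, whose probe set also reads the delivered fusion. Its signal was 48.2 to 309.2 in the GFP arrays, 11970.8 to 58985 in PRWT and 9281.2 to 41097.2 in PR2VR. Of 10 monocytic markers, 8 passed the filter on low values and were tested, and SPI1 did not pass. The summed signal of those measured overlapped between GFP (9589 to 26471), PRWT (8697 to 30608) and PR2VR (9012 to 23974). LYZ alone gave 3294.3 to 21335.7 of it. In PRWT, ITGAM (-0.80 ± 0.34) and CSF1R (-0.70 ± 0.31) were below GFP in all 4 sets. ITGAX (-0.52 ± 0.62), LYZ (-0.23 ± 0.62) and CEBPA (-0.15 ± 0.47) were below GFP in 3 of 4 sets. CD4 (0.22 ± 0.44), FCGR1A (0.54 ± 0.57) and MPO (0.16 ± 0.50) were above GFP on average. None of these was called. T cell markers passed the filter for 2 of 5 (summed signal 465 to 1808) and B cell markers for 4 of 5 (3662 to 17696). Erythroid markers passed for 2 of 5 (414 to 1143) and epithelial and fibroblast markers for 3 of 6 (1123 to 2887). The 3 arrays of 9 h number 2 stood apart. Their median signals were 387.6 to 435.8, against 238.8 to 292.4 elsewhere. Their ratios of the GAPDH probe set at the 3′ end to that at the 5′ end, a sign of RNA quality, were 2.21 to 2.75, against 3.82 to 12.9. The same ratio for actin was 7.79 to 10.7 in these arrays, against 12.5 to 58.2. The part of RNA quality in any result was not tested.

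The members' probe sets gave high and steady signals. Levels are log2(signal + 62.5), whose median over the 39 genes was 14.3, against 10.66 over the 13959 genes tested. Signals of different probe sets do not rank genes by abundance. The standard deviation over 12 arrays had a median of 0.40 in the members and 0.54 in all genes. PSMB7, the subunit with trypsin-like activity, varied least (SD 0.17, n = 12 arrays) and the alpha-ring gene PSMA3 most (SD 0.99). Where groups are described, values run in the order 6 h number 1, 6 h number 2, 9 h number 1 and 9 h number 2.

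**Figure D1:**
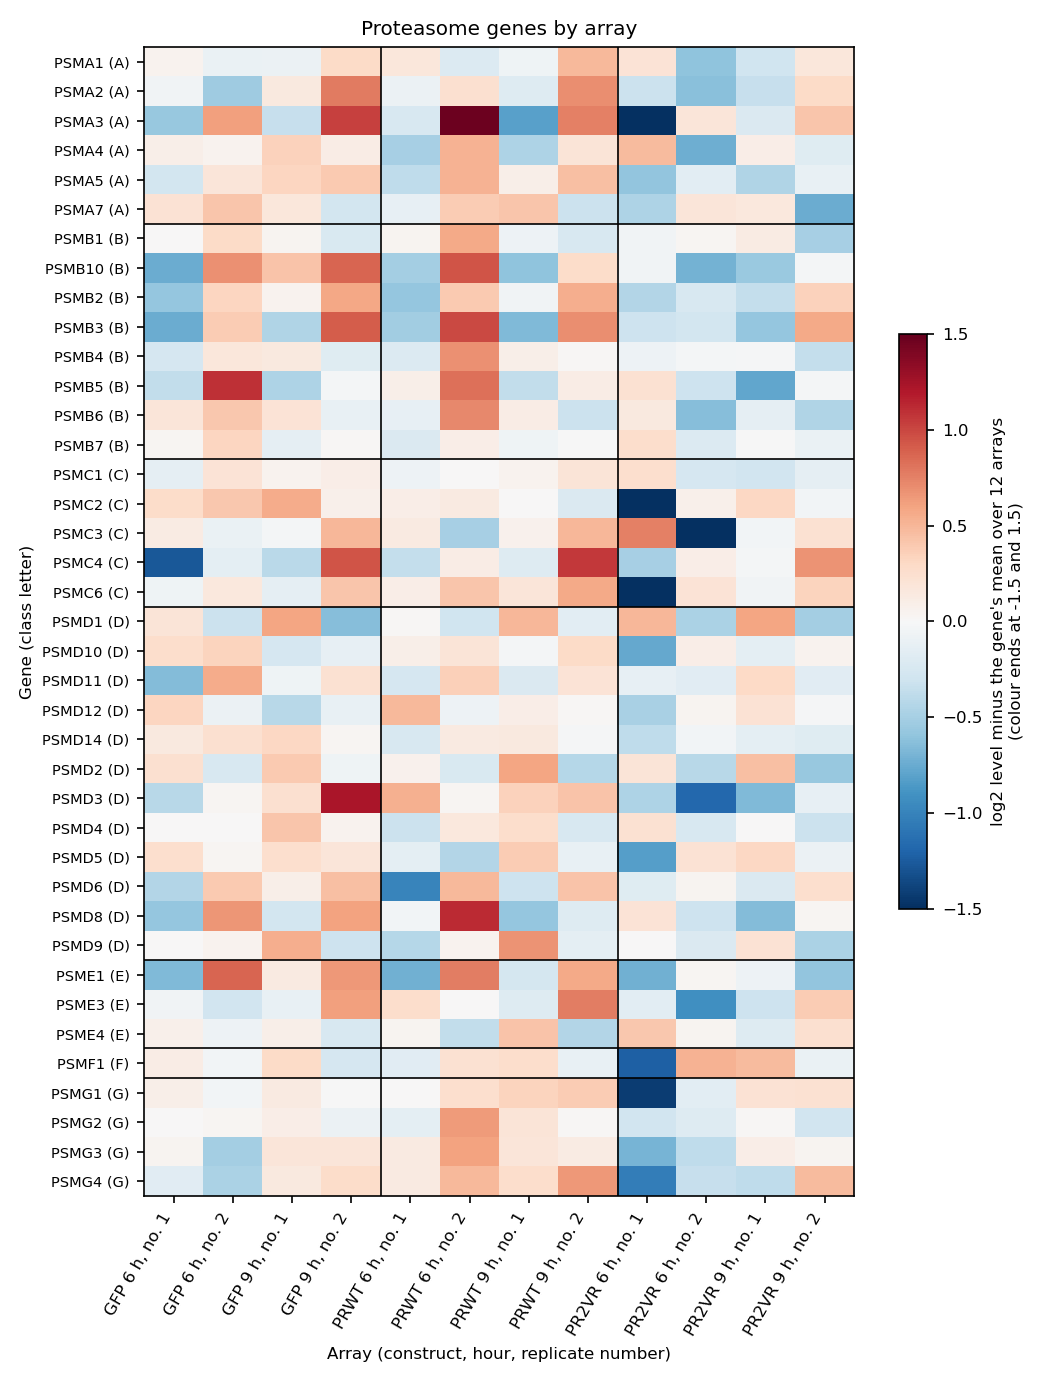
Each row is 1 of the 39 proteasome genes, grouped by class letter, and each column is 1 array, with colour for the log2 level minus the gene's own mean over the 12 arrays (scale ends at -1.5 and 1.5). PSMA3, PSMC2, PSMC6, PSMG1 and PSMF1 are lowest in the PR2VR array of 6 h number 1, and PSMC4 is highest in the 9 h number 2 arrays.

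Protease resistance, the subject of the series title, is addressed by comparing PR2VR with PRWT. The 2 forms also differed in the RARA probe set, which reads the delivered fusion. PR2VR minus PRWT was -0.40 ± 0.54 for it, below 0 in all 4 sets (from -0.68 to -0.15), and it was not called. The part of fusion level in the differences below was not tested. Against PRWT, PR2VR cells had lower values for 35 of the 39 proteasome genes, with a median difference of -0.26, against -0.01 over all genes (32 of 39 and -0.19 after quantile normalization). This is 89.7% of the members below 0, against 51.3% of all genes. No member passed the test (limma, Benjamini-Hochberg adjusted p under 0.05), nor did any other gene (0 of 13959, 0%). Unadjusted, 2 members were under 0.05 (all genes 1.55%), and 9 were when the set was added to the model as a block (all genes 6.86%), with 0 adjusted calls in either fit. In all 4 sets 12 members lay below 0, where 6.93% of all genes did. The differences ranged from -0.94 for PSMD3 to 0.21 for PSME4. In such bulk samples, fewer cells that express a gene and less RNA per cell cannot be told apart.

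The sets did not contribute alike. The members' median PR2VR minus PRWT difference was 0.00 in 6 h number 1 (19 above 0, 20 below), -0.53 in 6 h number 2 (4 above, 35 below), -0.12 in 9 h number 1 (14 above, 25 below) and -0.24 in 9 h number 2 (5 above, 34 below). Over all genes the medians of these sets were 0.10, -0.05, -0.07 and 0.01. The shares below 0 were 51.3%, 89.7%, 64.1% and 87.2% of the members, against 44.4%, 52.5%, 55.1% and 49.3% of all genes. The PRWT array of 6 h number 2 held the highest value of 12 members (30.8%, against 8.58% of all genes). Without it the median was -0.13. The PR2VR array of 6 h number 1 held the lowest value of 13 members (33.3%, against 14.6% of all genes). The actin ratio of 3′ to 5′ signal was higher in PR2VR than in PRWT in all 4 sets, in the same order: 17.3 against 12.5, 56.9 against 27.5, 58.2 against 33.6 and 9.96 against 7.79. The GAPDH ratio was lower in PR2VR in both 6 h sets (3.99 against 4.04 and 3.82 against 8.28) and higher in both 9 h sets (12.9 against 8.14 and 2.38 against 2.21). The part of either ratio in the lower PR2VR values was not tested.

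**Figure D2:**
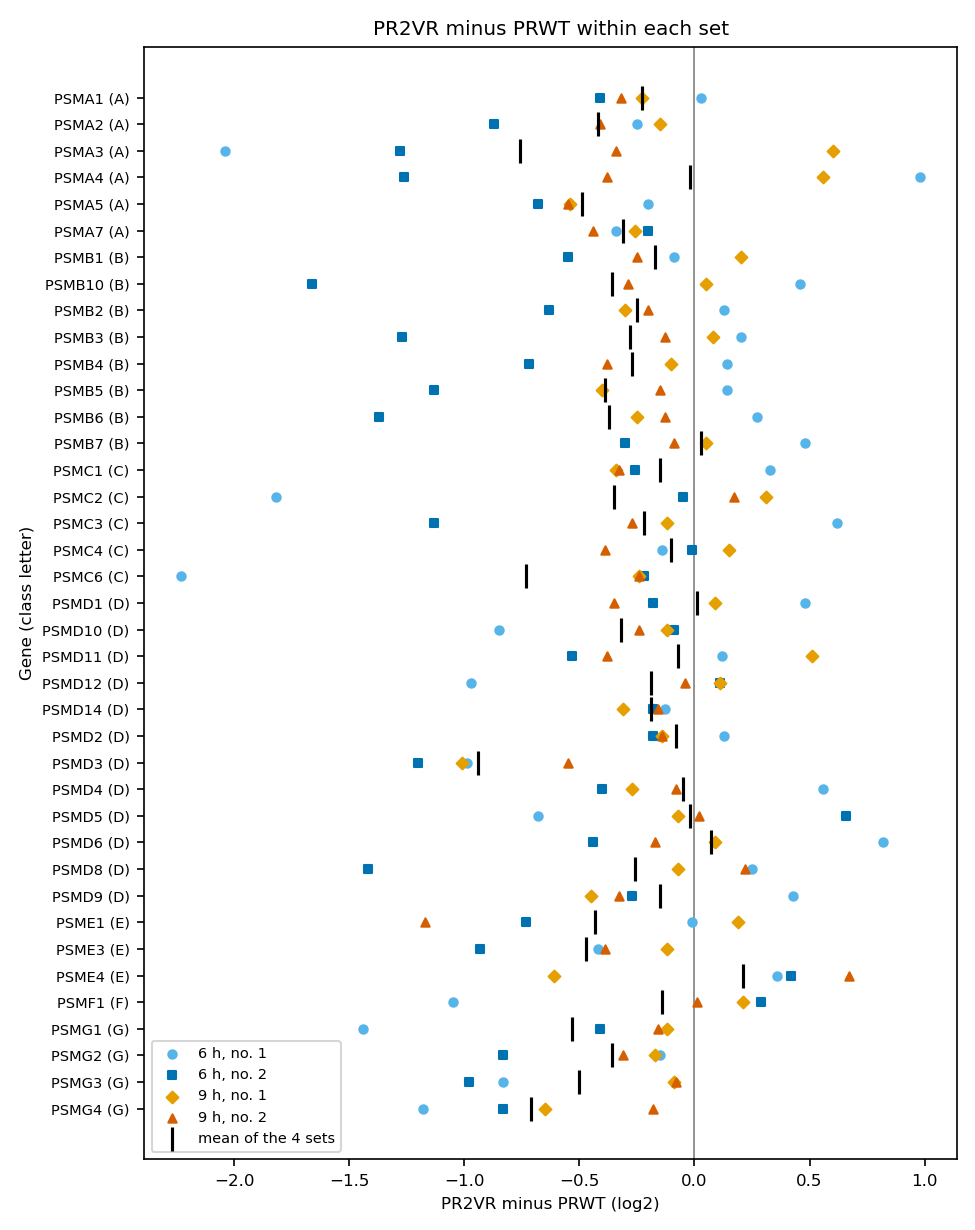
Each row is 1 proteasome gene, and the horizontal axis is PR2VR minus PRWT on the log2 scale, with 1 symbol for each of the 4 sets and a bar at their mean. Most bars lie left of 0, and the 4 assembly genes (class G) lie left of 0 in all 4 sets.

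The assembly chaperones had the lowest class median, -0.51. PSMG1 and PSMG2 form a pair that starts the alpha ring, and PSMG3 and PSMG4 form another. All 4 were below 0 in all 4 sets, and none passed the test. PSMG4 measured 11.44, 11.13, 11.75 and 11.88 in GFP, 11.75, 12.09, 11.87 and 12.26 in PRWT, and 10.57, 11.26, 11.22 and 12.08 in PR2VR. The PRWT and PR2VR ranges overlapped, and 3 of the 4 PR2VR values lay below every PRWT value. PR2VR minus PRWT was -0.71 ± 0.30 (SE, n = 4 arrays against 4, adjusted p = 1). Of its 4 other probe sets, the 2 above the filter gave -0.85 and -0.10. Their mean levels, 7.96 and 8.15, lay near the filter of 7.85.

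PSMG3 measured 13.24, 12.68, 13.37 and 13.37 in GFP, 13.33, 13.80, 13.38 and 13.32 in PRWT, and 12.50, 12.82, 13.29 and 13.24 in PR2VR. All PRWT values lay above all PR2VR values, the closest pair 13.32 and 13.29, and the difference was -0.50 ± 0.26 (adjusted p = 1). PSMG1 measured 14.86, 14.73, 14.91 and 14.77 in GFP, 14.79, 15.03, 15.11 and 15.16 in PRWT, and 13.35, 14.62, 14.99 and 15.00 in PR2VR. Its difference of -0.53 ± 0.29 held 1 low value, the 6 h number 1 array of PR2VR. PSMG2, shown for the highest mean signal of its class, measured 15.26, 15.28, 15.35 and 15.17 in GFP, 15.11, 15.89, 15.44 and 15.27 in PRWT, and 14.96, 15.06, 15.27 and 14.96 in PR2VR. The 2 fusions' ranges overlapped, and the difference was -0.36 ± 0.25.

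In the cap, the class D gene PSMD3, a scaffold subunit of the lid, had the largest difference of the 39. It also had the lowest mean level of the 39, 10.17, and its SD was 0.63, against a median of 0.40 in the members. PSMD3 measured 9.75, 10.21, 10.42 and 11.40 in GFP, 10.71, 10.20, 10.52 and 10.60 in PRWT, and 9.72, 9.00, 9.51 and 10.05 in PR2VR. The PR2VR range lay below the PRWT range without overlap, while the GFP range overlapped both. The difference was -0.94 ± 0.33 (adjusted p = 1, or 0.72 with the block), from -1.20 to -0.55 over the sets. PSMD3 has 1 probe set here, and its promoter holds 2 of the windows printed above. The other class D genes lay nearer 0, and the class median was -0.12 with 10 of 12 genes below 0.

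PSMD14, the deubiquitinating enzyme of the lid, shown for the highest mean signal of class D, measured 15.29, 15.38, 15.45 and 15.16 in GFP, 14.89, 15.27, 15.29 and 15.11 in PRWT, and 14.76, 15.09, 14.98 and 14.95 in PR2VR. Its PR2VR minus PRWT difference was -0.19 ± 0.23, and its PR2VR minus GFP difference was -0.37 ± 0.23, with all GFP values above all PR2VR values. PSMD6, another lid subunit, was 1 of the 4 genes above 0. PSMD6 measured 14.51, 15.34, 15.05 and 15.40 in GFP, 13.96, 15.44, 14.65 and 15.38 in PRWT, and 14.78, 15.00, 14.74 and 15.21 in PR2VR. The 3 ranges overlapped and the difference was 0.07 ± 0.35. It turned to -0.30 without the PRWT array of 6 h number 1.

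The cap ATPases (class C) were below 0 in 5 of 5, with a median of -0.22. PSMC6 measured 14.24, 14.46, 14.17 and 14.72 in GFP, 14.40, 14.72, 14.48 and 14.87 in PRWT, and 12.17, 14.50, 14.24 and 14.63 in PR2VR, a gene chosen for display after its values were seen. Its difference of -0.73 ± 0.41 was below 0 in every set, and the 12.17 of the 6 h number 1 array stood well under the rest.

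In the core, 13 of 14 genes were below 0. Class A had a median of -0.36 (6 of 6 below 0) and class B of -0.27 (7 of 8 below 0). PSMA3 measured 13.60, 14.80, 13.83 and 15.21 in GFP, 13.94, 15.64, 13.36 and 14.93 in PRWT, and 11.90, 14.36, 13.96 and 14.59 in PR2VR. Its difference was -0.76 ± 0.58, above 0 in 1 set, and its 2 other probe sets gave 0.10 and -0.46. PSMA2, also of the alpha ring, measured 14.96, 14.48, 15.16 and 15.79 in GFP, 14.93, 15.25, 14.82 and 15.71 in PRWT, and 14.68, 14.38, 14.67 and 15.30 in PR2VR. The ranges overlapped, with a difference of -0.42 ± 0.29 that was below 0 in each set. PSMA4, shown for the highest mean signal of class A, measured 16.24, 16.20, 16.50 and 16.26 in GFP, 15.65, 16.67, 15.69 and 16.35 in PRWT, and 16.63, 15.41, 16.25 and 15.97 in PR2VR. No construct stood apart for it.

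Among the beta genes, PSMB5 holds the chymotrypsin-like site that proteasome inhibitors hit. PSMB5 measured 13.02, 14.49, 12.93 and 13.37 in GFP, 13.48, 14.22, 13.02 and 13.51 in PRWT, and 13.62, 13.09, 12.62 and 13.36 in PR2VR. The constructs overlapped, at -0.39 ± 0.36. PSMB1, a non-catalytic ring member shown for the highest mean signal of class B, measured 16.26, 16.56, 16.30 and 16.04 in GFP, 16.31, 16.84, 16.19 and 16.02 in PRWT, and 16.22, 16.29, 16.39 and 15.77 in PR2VR. Its difference was -0.17 ± 0.24, and its other probe sets gave -0.14 and 0.43.

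PSMB10 replaces PSMB7 in the immunoproteasome, the interferon-induced form that favours peptides for antigen presentation. PSMB10 measured 11.65, 13.08, 12.82 and 13.26 in GFP, 11.88, 13.34, 11.79 and 12.66 in PRWT, and 12.34, 11.68, 11.84 and 12.37 in PR2VR. PR2VR minus PRWT was -0.36 ± 0.41 and PR2VR minus GFP was -0.65 ± 0.41, and the ranges overlapped. The other immunoproteasome beta genes, PSMB9 and PSMB8, differed by -0.66 ± 0.33 and -0.43 ± 0.33 between PR2VR and PRWT, below 0 in all 4 sets (adjusted p = 1 for each).

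PSME1 codes for a subunit of the activator that serves the immunoproteasome. PSME1 measured 13.35, 14.88, 14.14 and 14.65 in GFP, 13.29, 14.77, 13.74 and 14.58 in PRWT, and 13.28, 14.04, 13.93 and 13.41 in PR2VR. The constructs overlapped, and PR2VR minus PRWT was -0.43 ± 0.42. PSME4, the nuclear activator linked to histone breakdown, went the other way. PSME4 measured 13.17, 13.02, 13.19 and 12.86 in GFP, 13.14, 12.72, 13.52 and 12.66 in PRWT, and 13.50, 13.14, 12.91 and 13.33 in PR2VR. Its difference of 0.21 ± 0.29 became -0.01 without the PRWT array of 9 h number 2. The inhibitor PSMF1 measured 13.76, 13.60, 13.93 and 13.39 in GFP, 13.47, 13.88, 13.91 and 13.54 in PRWT, and 12.42, 14.17, 14.12 and 13.55 in PR2VR. Its difference was -0.14 ± 0.36, with the 6 h number 1 array of PR2VR below all others.

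Different probe sets of a gene did not always give the same sign. Of the 39 genes, 20 had several above the filter, and for PR2VR minus PRWT all probe sets had the same sign in 8 of the 20. The chosen probe set was the one with the highest mean. Averaged over each gene's probe sets, the members' median was -0.19.

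Against GFP, PR2VR cells had lower values for 35 of 39 proteasome genes (89.7%, against 53.1% of all genes), with a median of -0.24 against -0.03. None of the members was called, and 1 gene outside them was, RARA itself (0.00716% of all genes, or 0.294% with the block, which called no member). Unadjusted, 1 member was under 0.05 (all genes 3.95%), or 6 with the block (all genes 11.1%). The set medians were -0.04, -0.29, -0.20 and -0.24, against 0.13, -0.06, -0.07 and -0.02 over all genes. All 14 core genes tested (13 after quantile normalization), all 4 assembly genes and 14 of 17 cap genes were below 0. This comparison shares the PR2VR arrays with the previous one. PSMD3 differed by -0.88 ± 0.33 (adjusted p = 1, or 0.25 with the block), below 0 in every set. PSMC4, an ATPase of the cap, had the highest value above GFP, 0.28 ± 0.41, which turned to -0.06 without the GFP array of 9 h number 1. PSME4 was at 0.16 ± 0.29, above GFP in 3 of 4 sets.

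The ATPase gene PSMC2 measured 15.50, 15.63, 15.78 and 15.30 in GFP, 15.33, 15.35, 15.23 and 15.01 in PRWT, and 13.51, 15.30, 15.54 and 15.18 in PR2VR. Each fusion array lay below the GFP array of its set. PR2VR minus GFP was -0.67 ± 0.34 (adjusted p = 1), and -0.22 without the PR2VR array of 6 h number 1, which held 13.51. Its other probe sets, both above the filter, gave 0.12 and -0.29.

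The smallest median among the construct comparisons was that of PRWT against GFP. It was 0.01, with 21 members above 0 and 18 below, or -0.05 after quantile normalization (all genes 0.00, and 50.6% of them above 0). Its set medians were -0.03, 0.10, -0.02 and -0.02, against 0.01, 0.00, 0.01 and -0.01 over all genes. None was called (all genes 0.00716%), and none was under 0.05 unadjusted (all genes 2.06%). The assembly class had the highest median, 0.25, with 4 of 4 above 0, led by PSMG4 at 0.44 ± 0.30 and PSMG3 at 0.29 ± 0.26 (adjusted p = 1 for each). PSMG4 was above GFP in 4 of 4 sets, and its 2 other probe sets above the filter, both near it, gave 0.38 and 0.19. PSMG3 was at 0.15 without GFP number 2 at 6 h. PSMC2 was at -0.33 ± 0.34, below GFP in each set, and at -0.20 without GFP number 1 at 9 h.

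PSMD5, a chaperone that helps build the cap's base, was next at -0.26 ± 0.30. PSMD5 measured 12.93, 12.70, 12.92 and 12.85 in GFP, 12.52, 12.23, 13.05 and 12.56 in PRWT, and 11.84, 12.89, 12.98 and 12.58 in PR2VR. PRWT exceeded GFP in 9 h number 1 alone of the 4 sets, and the difference was -0.13 without PRWT number 2 at 9 h.

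With the fusions averaged, 32 of 39 proteasome genes lay below GFP (82.1%, against 52.4% of all genes), with a median of -0.11 against -0.02. The set medians ran from -0.14 to -0.10, and those of all genes from -0.04 to 0.05. None was called (all genes 0.00716%, or 0.315% with the block, again with no member), and none was under 0.05 unadjusted (all genes 3.14%). PSMC2 (-0.50 ± 0.30) and PSMD3 (-0.41 ± 0.29) were the lowest by p, PSMC4 (0.33 ± 0.36) and PSMD12 (0.11 ± 0.23) the highest, all with adjusted p = 1. PSMC4 turned to -0.01 without the GFP array of 9 h number 1. PSMD3 was at -0.16 without GFP number 2 at 9 h, PSMC2 at -0.27 without PR2VR number 1 at 6 h and PSMD12 at 0.00 without GFP number 2 at 6 h. PSMD12, a lid subunit, measured 14.36, 13.95, 13.62 and 13.92 in GFP, 14.51, 13.96, 14.14 and 14.05 in PRWT, and 13.54, 14.07, 14.25 and 14.01 in PR2VR. Its values overlapped in all constructs.

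**Figure D3:**
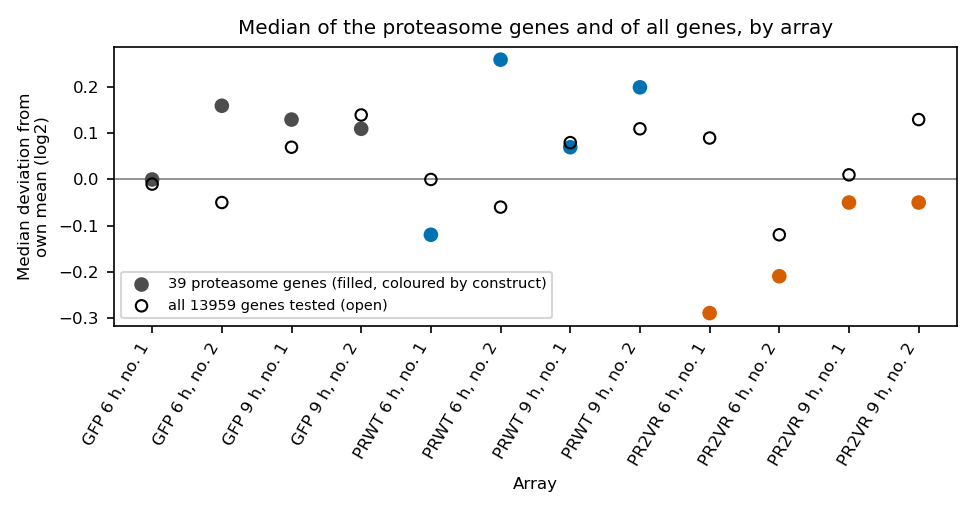
Filled points give, for each array, the median over the 39 proteasome genes of the log2 level minus the gene's own mean over 12 arrays, coloured by construct, and open points give the same over all 13959 genes tested. The proteasome medians of the 4 PR2VR arrays lie between -0.29 and -0.05, and those of the GFP and PRWT arrays between -0.12 and 0.26.

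Between hours the members' shift depended on the scaling. From 6 h to 9 h the members' median was 0.14 (27 above 0, 12 below) against 0.13 over all genes (60.6% above 0). By construct the members' median was 0.12 in GFP, 0.10 in PRWT and 0.11 in PR2VR, against 0.14, 0.09 and 0.11 over all genes. After quantile normalization of the arrays, the members' median was 0.25 with 5 of 39 below 0, against 0.05 over all genes. No member was called under either scaling (all genes 0.0788% as deposited), and none was under 0.05 unadjusted (all genes 15.1%). Hour differs only between sets, and arrays of a set can deviate together, so n here counts arrays, not independent samples. In limma with the set as a random block, the smallest adjusted p of a member was 0.86. No member was under 0.05 unadjusted in that fit (all genes 5.49%). Class C had the highest median, 0.41, and class B the lowest, -0.10, which quantile normalization turned to 0.03. PSMC4 measured 11.12, 12.24, 11.98 and 13.34 in GFP, 12.03, 12.50, 12.20 and 13.45 in PRWT, and 11.89, 12.49, 12.35 and 13.06 in PR2VR. Its 9 h number 2 arrays were its 3 highest, and the difference between hours was 0.69 ± 0.33 (n = 6 against 6, adjusted p = 0.35). PSMA2 followed at 0.46 ± 0.24 (adjusted p = 0.38), while its other probe set gave -0.12. In the other direction PSMB5 was at -0.52 ± 0.30 (adjusted p = 0.41), below 0 in all 3 constructs, and at -0.27 without the GFP array of 6 h number 2. PSMB1 was at -0.29 ± 0.20 (adjusted p = 0.48), while its other probe sets gave 0.05 and 0.12. Without the 6 h number 1 arrays the members' median turned to -0.04, an alternative chosen after seeing the data.

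The effect of the fusions was also compared between hours by an interaction term. Its median over the members was -0.05 against -0.02 for all genes, with 17 above 0 and 22 below. No gene of any kind passed (0% of all genes), and no member was under 0.05 unadjusted (all genes 0.759%). The widest values by p were 0.62 ± 0.45 for PSMD10, 0.57 ± 0.50 for PSMG1, -0.82 ± 0.71 for PSMB10 and -0.67 ± 0.58 for PSMD3 (adjusted p = 1 for each). Without GFP number 1 at 6 h PSMB10 was at -0.11, and without GFP number 2 at 9 h PSMD3 was at -0.17. Without PR2VR number 1 at 6 h PSMG1 was at 0.26 and PSMD10 at 0.40. PSMD10, or gankyrin, is a cap assembly chaperone. PSMD10 measured 14.68, 14.75, 14.17 and 14.30 in GFP, 14.50, 14.61, 14.39 and 14.71 in PRWT, and 13.65, 14.52, 14.27 and 14.47 in PR2VR. Its lowest value was again the 6 h number 1 array of PR2VR, and its other probe set gave -0.14 for the interaction.

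**Figure D4:**
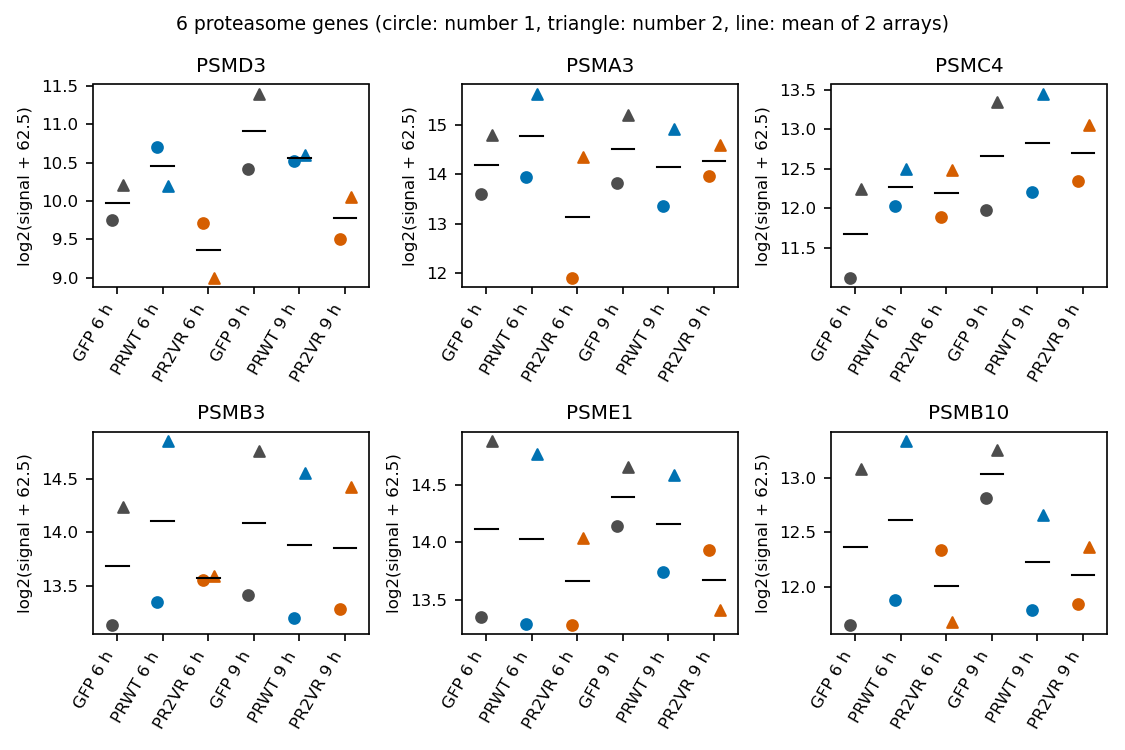
Each panel is 1 gene, with the log2 level of each array by construct and hour (circles number 1, triangles number 2, lines the mean of 2 arrays). PSMD3 is lower in PR2VR than in PRWT at both hours, and at 9 h the number 2 values of PSMA3, PSMB3 and PSMC4 lie above those of number 1.

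The differences that passed the test were between numbered sets of the same hour, not between constructs or hours. A number is not a treatment, so these values describe how sets of arrays differ. At 9 h, 10 of 39 proteasome genes differed between number 2 and number 1 (25.6%), where 19.2% of all genes did. Of these, 6 were higher in number 2 (PSMA2, PSMA3, PSMB2, PSMB3, PSMC4 and PSME3), where 10.1% of all genes were higher, and 4 were lower (PSMA7, PSMD1, PSMD2 and PSMD9), where 9.16% were lower. Over all members 22 lay above 0 and 17 below, with a median of 0.08 against 0.09 for all genes (55% above 0). Quantile normalization moved the median of all genes here to -0.02 and that of the members to 0.16. It called 7 members higher and 4 lower, where 17.5% of all genes were called.

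PSMB3, a non-catalytic beta subunit, measured 13.13, 14.24, 13.41 and 14.77 in GFP, 13.35, 14.86, 13.20 and 14.56 in PRWT, and 13.55, 13.59, 13.28 and 14.43 in PR2VR. At 9 h all number 2 values lay above all number 1 values, by 1.29 ± 0.27 (limma, adjusted p = 0.0068, n = 3 against 3), from 1.15 to 1.36 over the constructs. PSMC4 was higher by 1.11 ± 0.24 (adjusted p = 0.0079). PSMD1 and PSMD2, the large scaffold subunits of the cap's base, were lower in number 2. PSMD1 measured 13.54, 13.03, 13.94 and 12.70 in GFP, 13.36, 13.05, 13.84 and 13.18 in PRWT, and 13.84, 12.87, 13.93 and 12.83 in PR2VR. Its difference at 9 h was -1.0 ± 0.21 (adjusted p = 0.0082), and its other probe set gave -1.04. For other called genes, another probe set above the filter had the opposite sign: PSMA2 (-0.36), PSMA7 (0.26), PSMB2 (-0.24), PSMD9 (0.08) and PSME3 (-0.37). These probe sets were dimmer, with mean levels of 12.98, 13.25, 9.82, 9.27 and 10.07, against 15.01, 14.97, 14.72, 13.32 and 12.35 for the chosen ones. Further probe sets of PSMB2 (0.58 and 0.23), PSME3 (0.55 and 0.33) and PSMA3 (0.22 and 0.24) kept the sign. Of the 20 members with several probe sets above the filter, 7 had the same sign in all at 9 h.

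PSMD2 measured 14.84, 14.36, 14.99 and 14.53 in GFP, 14.66, 14.37, 15.19 and 14.17 in PRWT, and 14.79, 14.19, 15.05 and 14.03 in PR2VR. It was lower in number 2 by every pair, at -0.83 ± 0.19 (adjusted p = 0.010). Among the genes called at 9 h, TGACNNNGC was found in the promoters of PSMB3 and PSMC4 (higher) and of PSMD1 and PSMD9 (lower). The part of this motif in these differences was not tested. The adjusted p of PSMC4 became 0.060 and that of PSMD1 0.057 without the GFP array of 9 h number 2. That of PSMD2 became 0.053 to 0.059 without PRWT number 1, PRWT number 2 or PR2VR number 2 at 9 h. The 10 calls became 2 without GFP number 2, 3 without PRWT number 1, PRWT number 2 or PR2VR number 2, and 5 without GFP number 1, all at 9 h.

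At 6 h, 4 of 39 proteasome genes passed (10.3%), against 7.69% of all genes. All 4 (PSMA3, PSMB2, PSMD6 and PSME1) were higher in number 2, where 3.24% of all genes were higher and 4.46% lower. The members' median was 0.30 against -0.09 for all genes, with 28 above 0 and 11 below (43.4% of all genes above 0). After quantile normalization 2 members were called higher and 1 lower, where 6.62% of all genes were called. The members' median was then 0.19, against -0.07 for all genes. As deposited, the members' median was 0.13 in GFP, 0.47 in PRWT and 0.04 in PR2VR, against -0.04, -0.07 and -0.22 over all genes. PSME1 was higher by 1.26 ± 0.26 (adjusted p = 0.012) and PSMA3 by 1.79 ± 0.37 (adjusted p = 0.014). In each gene all number 2 values at 6 h lay above all number 1 values. The other probe sets of PSMA3 gave 0.05 and 0.20, and averaged over its probe sets the difference was 0.68 (adjusted p = 0.14). PSMB2 was called at 0.70, while its other probe sets gave -0.61, -0.15 and -0.04. Of the 20 members with several probe sets above the filter, 13 had the same sign in all at 6 h. Without the PRWT array of 6 h number 2, the adjusted p was 0.055 for PSME1 and 0.074 for PSMA3.

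PSMC3, another ATPase of the cap, was the lowest by p. PSMC3 measured 11.62, 11.39, 11.47 and 12 in GFP, 11.63, 11, 11.57 and 11.99 in PRWT, and 12.25, 9.87, 11.45 and 11.72 in PR2VR. Its difference was -1.08 ± 0.33 (adjusted p = 0.060). That difference was -1.43 without the GFP array of 6 h number 2, and -0.61 without the PR2VR array of 6 h number 2. PSMD1 was also lower in number 2 at 6 h, -0.60 ± 0.21 (adjusted p = 0.10). The 4 calls became 0 without PRWT number 2 and 7 without PR2VR number 1 at 6 h. They became 2 without GFP number 1 or PRWT number 1 at 6 h, and also without GFP number 1, PR2VR number 1, GFP number 2, PRWT number 2 or PR2VR number 2 at 9 h.

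**Figure D5:**
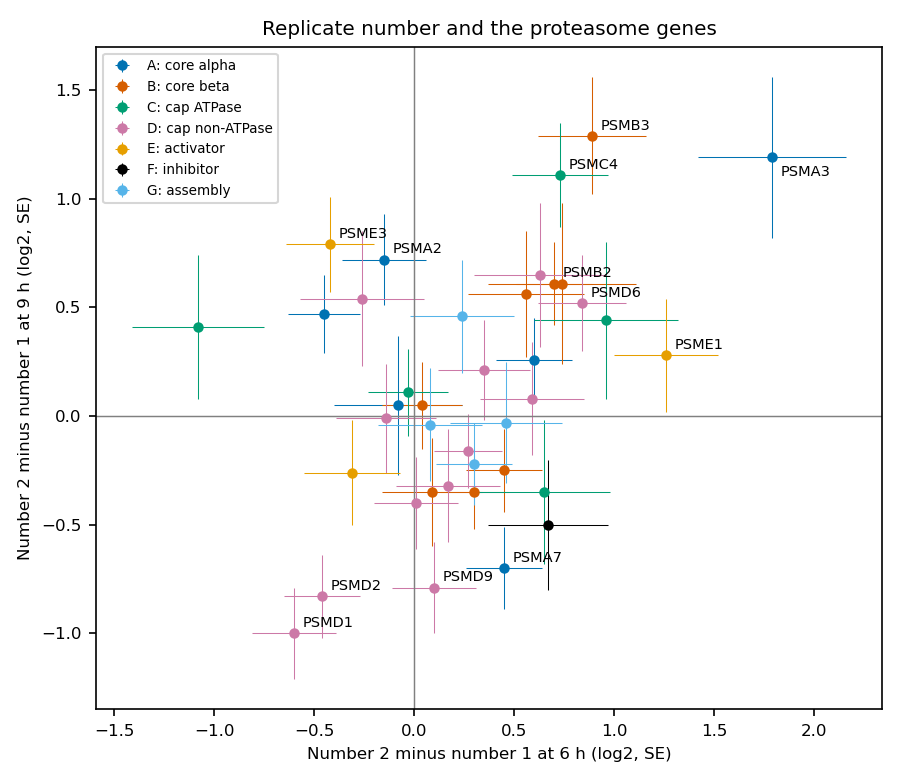
Each point is 1 of the 39 proteasome genes, coloured by class, with number 2 minus number 1 at 6 h on the horizontal axis and at 9 h on the vertical axis (log2, bars are SE). PSMA3, PSMB3 and PSMC4 lie up and to the right, and PSMD1 and PSMD2 lie down and to the left.

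Other genes of the pathway were read beside the members, from a list of ubiquitin genes, conjugating enzymes, proteasome-bound proteins, shuttles, regulators and the 2 immunoproteasome genes PSMB8 and PSMB9, of which 36 were tested. None passed in any comparison of constructs or hours. PR2VR minus PRWT had a median of 0.03 over this list, with 19 above 0 and 17 below. RAD23B, which carries ubiquitin-tagged proteins to the proteasome, was at -1.61 ± 0.63 (adjusted p = 1), with sets from -4.54 to -0.25. Its lowest value, 9.26, came from the PR2VR array of 6 h number 1, and all other values were 12.77 to 14.06. AKIRIN2, which brings the proteasome into the nucleus, was above GFP in PR2VR by 0.71 ± 0.27 (adjusted p = 1), in 4 of 4 sets. UBE3A, a ubiquitin ligase that binds the cap, was at 0.36 ± 0.22 for both fusions minus GFP. For PRWT minus GFP, the NFE2L1 partner MAFG was at -0.33 ± 0.26 and KEAP1, the adaptor that has NFE2L2 degraded, at -0.27 ± 0.27. The 5 regulators of subunit genes had a median of 0.18 for PR2VR minus PRWT, with 4 above 0, and NFE2L1 itself, named here after its values were seen, was at 0.19 ± 0.28.

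From 6 h to 9 h, the proteasome-binding PITHD1 (-0.66 ± 0.26) and KEAP1 (-0.56 ± 0.22) had the smallest p of the list (adjusted p = 0.28 for each). In the interaction, NGLY1, the enzyme that processes NFE2L1, was at 0.58 ± 0.48 and PITHD1 at 0.63 ± 0.54. Between numbers at 9 h, 4 of the 36 genes of the list were called (11.1%), fewer than the 19.2% of all genes. Of these, 2 were higher and 2 lower in number 2, led by FAF1 (1.24 ± 0.21, adjusted p = 0.0031) and NPLOC4 (-1.30 ± 0.26, adjusted p = 0.0063), both partners of the unfolding enzyme VCP. At 6 h, 6 of the 36 were called (16.7%, against 7.69% of all genes), 3 higher (PSMB8, PSMB9 and SEM1) and 3 lower in number 2. UBA1, the enzyme that activates ubiquitin, was lower by 2.18 on the log2 scale there (-2.18 ± 0.35, adjusted p = 0.0048). PSMB9 was higher by 0.99 ± 0.19 (adjusted p = 0.011). Of the 6 other symbols tested under the naming rule, none passed in any comparison, and PSMD6-AS2 had the largest PR2VR minus PRWT difference, 0.62 ± 0.30.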

How the data were processed

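RNA of 12 U937 samples was measured on Affymetrix arrays. The labels' protocols name Trizol for the extraction of total RNA, which was then labelled as biotinylated cRNA. The deposited intensity is the signal of MAS5, per the submitters' processing notes, on a linear scale from 0.5 to 289408.3. With the top and bottom 2% removed, each array averaged 1500.2, which shows that the authors had scaled their values. No detection call was used, and the number of arrays limits the precision. GRCh38.p14 was used only for the RefSeq promoter windows and gene positions.

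Values were transformed as log2(signal + 62.5), the 20th percentile of all values, which understates changes of dim genes. There are 54675 probe sets. Of these 62 are controls, and the platform annotation gives 1 symbol to 41091, several to 1801, and 11721 are unnamed in it. The probe set with the highest mean stood for each of 19775 genes. Genes were tested at a mean of 7.85 or more, the 40th percentile (a signal of 168.9), which left 13959.

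The test was limma 3.58.1 (R 4.3.3), fitted with a mean for each group, a variance trend and 6 residual degrees of freedom. Comparisons of numbers used construct and set as terms. p-values were adjusted by Benjamini-Hochberg over all genes tested, and a gene was called under 0.05. The set was also fitted as a block (4 residual degrees of freedom), or as a random block for hours (consensus correlation 0.41). The labels give each group the numbers 1 and 2. Deviations of number 2 from number 1 were correlated over all genes. Between constructs the values were 0.15 to 0.36 at 6 h and 0.56 to 0.63 at 9 h. Between groups of different hours they were -0.02 to 0.19, which overlaps the 6 h values. The numbers were taken to pair arrays of the same hour, with less ground for it at 6 h than at 9 h. The procedure was tested on simulated data.

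The members and lists were chosen with earlier results of these data known. Named in each comparison are the 2 members per direction and the 2 pathway genes with the smallest unadjusted p, and in each class the member with the highest mean signal. PSMB10, PSME1 and PSME2 were to be shown always, and PSME2 has no probe set with 1 symbol. Alternatives were other offsets, quantile normalization, no filter, no variance trend, the mean of probe sets, the block, each array left out, and the 9 h number 2 or 6 h number 1 arrays left out.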

Additional observations from a re-analysis of the deposited data

How the results depend on the processing

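With offsets of 16 or 250 in place of 62.5, or with the replicate block, no count of calls moved, and no member was called between constructs or hours under any setting run. The replicate block thus changed no call of a member. Each set holds 1 array of each construct, so the block cannot move a difference between constructs, only its standard error and p-value. The member median of PR2VR minus PRWT, -0.26 in both fits, therefore says nothing about the pairing. A count was said to move if it changed by more than a fixed fold, or to or from 0. A median was said to move if it changed by more than the SD of its medians within sets or constructs. Small shifts can thus be listed and larger ones left out. By this rule the median of PR2VR minus PRWT did not move, though it was -0.19 after quantile normalization and with the mean of probe sets. The cause of the moves below was not tested. Quantile normalization moved the member median to 0.25 for 9 h minus 6 h and to 0.16 for number 2 minus number 1 at 9 h. The mean of probe sets gave 0.13 for 9 h minus 6 h, -0.09 for both fusions minus GFP, 2 calls at 6 h, and 0.68 for PSMA3 at 6 h. Without the variance trend there were 6 calls at 9 h and 2 at 6 h, and without the filter 2 at 6 h. Without the 9 h number 2 arrays the median of 9 h minus 6 h was 0.09, and PSME4 turned to -0.03 against GFP and to -0.11 against PRWT in PR2VR. Without the 6 h number 1 arrays, an alternative chosen after seeing the data, that median was -0.04 and PSMD6 turned to -0.25 for PR2VR minus PRWT.

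Leaving out each of the 12 arrays in turn gave member medians of -0.35 to -0.13 for PR2VR minus PRWT, -0.29 to -0.19 for PR2VR minus GFP, -0.08 to 0.13 for PRWT minus GFP and -0.17 to -0.06 for both fusions minus GFP. It gave 0.03 to 0.24 for 9 h minus 6 h, -0.17 to 0.13 for the interaction, 0.05 to 0.19 between numbers at 9 h and 0.25 to 0.39 at 6 h. The calls between numbers were 2 to 13 at 9 h and 0 to 7 at 6 h. Reversed values were PSMC4 at -0.01 for both fusions minus GFP and -0.06 for PR2VR minus GFP without GFP number 1 at 9 h, and PSME4 at -0.01 for PR2VR minus PRWT without PRWT number 2 at 9 h. The highest values of the same comparisons were 0.67 and 0.62 for PSMC4 and 0.42 for PSME4. PSMD6 reversed for PR2VR minus PRWT to -0.30, -0.11 and -0.05 without PRWT number 1 at 6 h, PRWT number 1 at 9 h and PR2VR number 2 at 9 h, and reached 0.44 without PRWT number 2 at 6 h. With 2 arrays a group, and 1 where an array is left out and is assumed to vary like the others, only large differences can be called.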
